A study of Mus musculus with 12 samples.

Results

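Brown adipose tissue stores glucose as glycogen, and 9 genes that build and degrade this store were followed in iBAT of mice exposed to cold and to a high-fat diet. They were *Ugp2*, *Gyg*, *Gys1*, *Gys2*, *Gbe1*, *Pygl*, *Pygb*, *Ppp1r3b* and *Ppp1r3c*. The genes were matched by name in the count table, and all 9 were found among its 61210 genes. They had been chosen with earlier results of these data known, so their shares of calls are descriptions. All 9 also passed the filter on low counts, which left 16737 genes to be tested. Total RNA was sequenced from wild type mice of the C57BL/6N strain, 20 weeks old, with 3 mice in each of 4 groups. The control diet (NCD) was chow, and HFD was fed for the last 12 weeks. One group on each diet stayed at room temperature, named 22 °C in the deposited table, and the other spent the final 24 h at 4 °C. No group carried an engineered allele, and the sex of the mice is not given in the sources used here. The study's methods place iBAT between the shoulder blades, while the description of the deposit calls it inguinal.

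Glycogen synthesis starts from UDP-glucose, which UDP-glucose pyrophosphorylase makes from glucose 1-phosphate and UTP. Glycogenin primes a new particle, glycogen synthase extends its chains and the branching enzyme adds branch points. Glycogen phosphorylase releases glucose 1-phosphate again, and targeting subunits bring protein phosphatase 1 to the particle, where it activates the synthase and inactivates phosphorylase. Brown adipocytes take up large amounts of glucose during thermogenesis, and glycogen is one of the fuels they hold.

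Totals per library lay between 15136861 and 46740702 counts. Replicates 1 and 2 of every group formed a batch of 8 libraries by the sample labels, and replicate 3 of every group a batch of 4 deeper ones. All 8 brown adipocyte markers were detected in every library, and *Ucp1*, the uncoupling protein of brown fat, lay between 3789 and 18810 CPM, the share of a library's TMM-scaled counts on a scale that sets all libraries to the same total. Skeletal muscle RNA varied within the groups, since the summed level of 10 muscle markers ran from 559 to 17349.5 CPM. It was highest in replicate 2 of both NCD groups (16395 CPM at 22 °C and 8846 CPM at 4 °C) and in replicate 3 of both HFD groups (17349.5 CPM and 5199 CPM). *Gys2*, *Pygl* and *Ppp1r3b* are best known from liver, and 8 liver markers summed to 4.96 to 47.8 CPM. *Alb* reached at most 2.15 CPM, *Apoa1* 0.291 CPM and *Ttr* 0.124 CPM, and of the others only *Cyp2e1* (up to 46.1 CPM) and *Serpina1a* (up to 5.41 CPM) went above 2.15 CPM. These latter genes moved with diet. *Cyp2e1* was lower on HFD (-2.57 at 22 °C, adjusted p = 0.0178, and -1.84 at 4 °C, adjusted p = 0.0408, on the log2 scale), and *Serpina1a* was higher on HFD at 4 °C (1.91, adjusted p = 0.0272). These are bulk libraries, in which fewer cells of a type and less RNA per cell cannot be told apart.

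Per length of the transcript, *Pygl*, the phosphorylase named for liver, was the most abundant of the 9 genes on NCD. At 22 °C it stood at 461 ± 78.4 CPM per kb (SD, 3 libraries) and lay above the 8 other genes in each library. *Ppp1r3b* followed at 224 ± 45.7, *Gbe1* at 173 ± 22.9 and *Ugp2* at 123 ± 12.0 CPM per kb. *Ppp1r3b* and *Gbe1* overlapped, whereas *Gbe1* and *Ugp2* did not. The lower part of the order was *Gyg* (89.0 CPM per kb), *Gys1* (67.5), *Ppp1r3c* (64.1), *Gys2* (44.2) and *Pygb*, the phosphorylase named for brain (29.9), and *Gys1* and *Ppp1r3c* were the only neighbours among these whose libraries overlapped. *Pygm*, the muscle phosphorylase, stood near *Gyg* with 88.6 ± 98.5 CPM per kb, a spread that ran with the muscle markers.

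The order differed in cold HFD mice, where *Ugp2* led with 246 ± 35.5 CPM per kb. *Pygl* came next at 147 ± 70.8 and then *Gbe1* at 127 ± 16.1 CPM per kb, and the ranges of *Ugp2* and *Pygl* overlapped, as did those of *Pygl* and *Gbe1*. *Gyg* followed at 100.4 CPM per kb, *Gys1* at 72.2, *Ppp1r3b* at 60.4, *Gys2* at 49.6, *Ppp1r3c* at 43.1 and *Pygb* at 14.9. From *Gys1* down to *Ppp1r3c*, neighbouring genes overlapped in this group. The plot of CPM by library shows these levels before division by length.

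**Figure D1:**
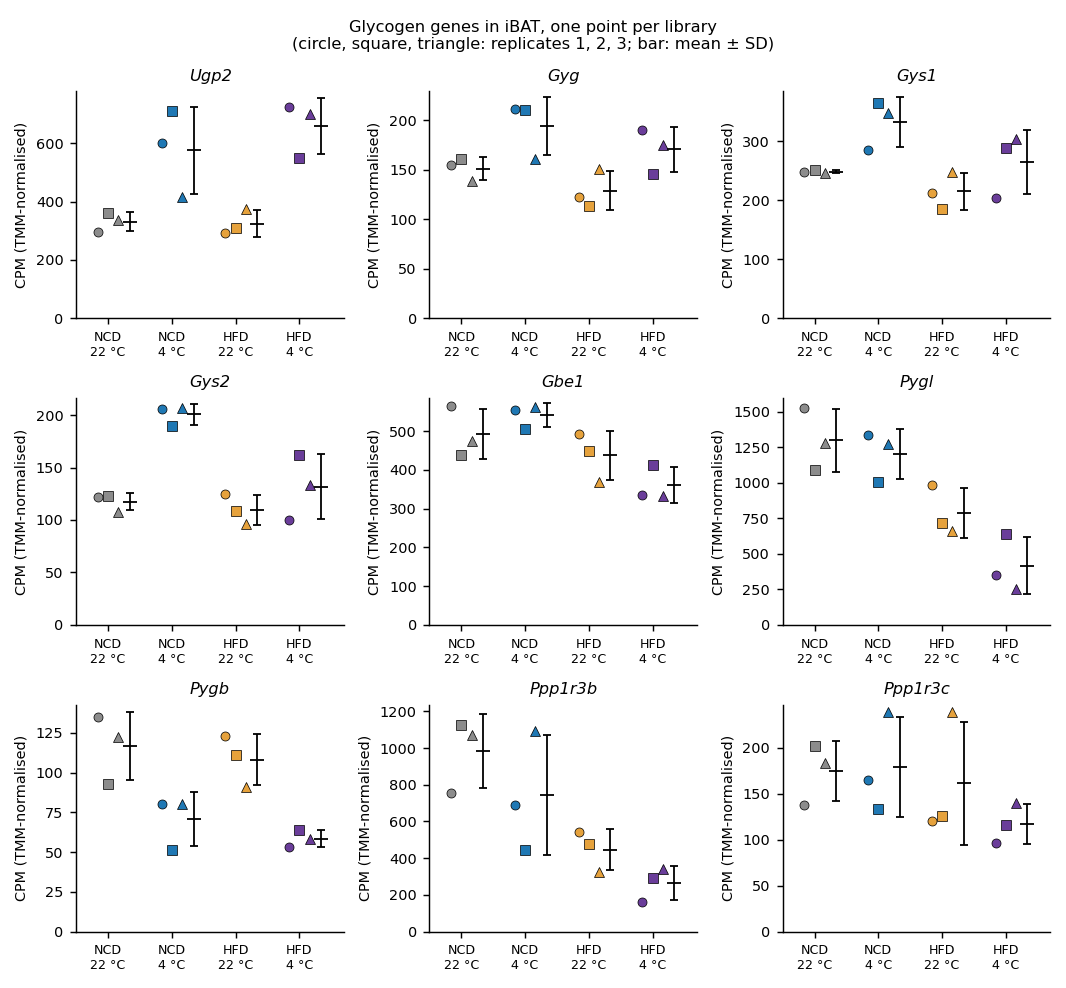
Each panel plots CPM (TMM-normalised, linear axis from 0) of 1 glycogen gene in the 4 groups, with circles, squares and triangles for replicates 1, 2 and 3 and a bar for the mean ± SD. The 3 *Ugp2* values of each cold group lie above those of the same diet at 22 °C, and the 3 *Pygl* values of HFD at 4 °C lie below all 9 others.

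Cold on NCD was read from the 6 NCD libraries in a fit over all 12. *Ugp2* and *Gys2* rose and *Pygb* fell. A gene was called where edgeR's quasi-likelihood test gave a Benjamini-Hochberg adjusted p under 0.05 and the log2 fold change was beyond 0.5 in either direction. Hence 2 of 9 genes were higher, against 3.72% of all tested genes, and 1 was lower, against 2.55%. The median log2 fold change of the 9 genes was 0.14, and -0.01 over all genes. In 4 of the 9 genes, *Gys1*, *Gys2*, *Ugp2* and *Pygb*, cold and 22 °C libraries did not overlap, as was the case for 27.8% of all genes.

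Cold on HFD gave the rise of *Ugp2* and the fall of *Pygb* again, and no call for *Gys2*. That is 1 gene higher, against 5.39% of all tested genes, and 1 lower, against 4.19%. The median log2 fold change was -0.28, and -0.04 over all genes. *Ugp2*, *Pygb* and *Pygl* were the 3 genes without overlap, which 30.3% of all genes showed.

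HFD was compared with NCD at each temperature. At 22 °C none of the 9 genes passed edgeR's thresholds, which 2.09% of all genes did. An unadjusted p under 0.05 was found for *Pygl* and *Ppp1r3b*, 2 of 9 genes, a share close to the 18.1% of all genes. DESeq2 called 1 of the 9, *Ppp1r3b*, against 3.47% of all genes. All 9 fitted log2 fold changes were negative, with a median of -0.17 against 0.03 over all genes, and the groups did not overlap for *Pygl* and *Ppp1r3b* (25.9% of all genes). At 4 °C *Gbe1*, *Pygl* and *Ppp1r3b* were lower on HFD, 3 of 9 genes against 2.69% of all genes, and none was higher, against 2.06%. There 8 of 9 fitted log2 fold changes were negative, all but that of *Ugp2*, and their median was -0.59 against 0.02. *Gys2*, *Gbe1*, *Pygl* and *Ppp1r3b* did not overlap between the diets at 4 °C, as for 25.2% of all genes. Every group enters 1 cold contrast and 1 diet contrast, so these comparisons share libraries.

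Markers of other cell types and of adipocytes themselves also moved with diet, as sums over lists of 5 to 10 genes. At 4 °C the 6 adipocyte markers summed to 10197 to 12173 CPM on NCD and 6374 to 8207 CPM on HFD, and the 8 brown adipocyte markers to 19549 to 22810 CPM and 15397 to 18750 CPM. At 22 °C the adipocyte sum was 7763 to 9073 CPM on NCD and 5968 to 7642 CPM on HFD, and the brown adipocyte sum 5887 to 7311 CPM and 7893 to 10107 CPM. The sum of 5 endothelial markers was 506 to 655 CPM in NCD mice and 754 to 1004 CPM in HFD mice at 22 °C, and 716 to 828 CPM and 961 to 1114 CPM at 4 °C. None of these sums overlapped between the diets. The same held at 22 °C for Schwann cell markers (187 to 235 CPM on NCD and 270.1 to 360 CPM on HFD), erythroid markers (1210 to 1773 CPM and 793 to 1167 CPM) and liver markers (26.6 to 43.9 CPM and 4.96 to 12.4 CPM), and at 4 °C for liver markers (25.6 to 47.8 CPM and 11.9 to 20.03 CPM). Most of the brown adipocyte sum was *Ucp1*, the only 1 of the 8 that passed the test between diets (0.74 at 22 °C, adjusted p = 0.0484, and -0.30 at 4 °C, adjusted p = 0.328). By sign, 4 of the 8 were higher and 4 lower on HFD at 22 °C, and 3 were higher (*Dio2*, *Prdm16*, *Ebf2*) and 5 lower at 4 °C. Of single adipocyte markers, *Retn* passed the test downwards at both temperatures and *Fabp4* at 4 °C, while *Adipoq*, *Plin1*, *Pparg* and *Lep* did not pass. Sums moved with cold as well. On NCD those of the adipocyte, brown adipocyte and endothelial markers were higher at 4 °C without overlap. On HFD this held for the brown adipocyte sum only. All 10 muscle markers had lower fitted values in the cold on both diets, with median log2 fold changes of -1.01 on NCD and -1.82 on HFD. None of these 10 passed the test, and their sums overlapped. The part of these cells in the values of the 9 genes, by diet or by cold, was not tested.

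**Figure D2:**
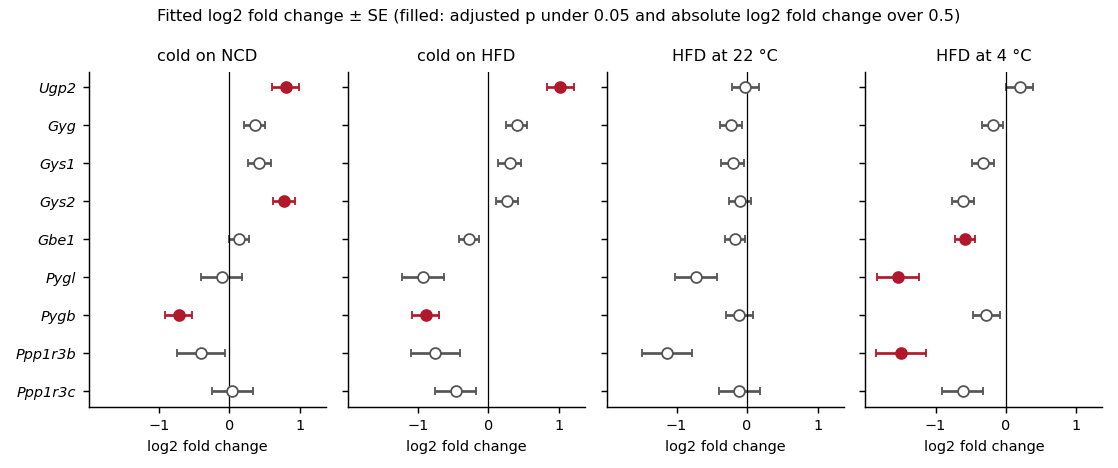
Fitted log2 fold changes (horizontal axis) with SE bars for the 9 genes in the 4 comparisons, filled where a gene was called. *Ugp2* is filled on the right in both cold panels (0.80 and 1.02), *Pygb* on the left in both, and *Gbe1*, *Pygl* and *Ppp1r3b* on the left for HFD at 4 °C.

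RefSeq promoters of GRCm38.p6 were available for 7 of the 9 genes and were searched over the 250 bases before the start site. They are shown for *Ugp2*, *Pygl* and *Pygb*, genes whose level changed with cold or diet and whose promoter holds ACGTG, the core of the sites bound by hypoxia-inducible and related factors. Capitals mark that core or its reverse complement, and each sequence is written 5′ to 3′ on the strand of its gene. That of *Ugp2* covers chr11:21371268-21371517 (minus strand), that of *Pygl* chr12:70227684-70227933 (minus strand) and that of *Pygb* chr2:150786546-150786795 (plus strand).
Ugp2: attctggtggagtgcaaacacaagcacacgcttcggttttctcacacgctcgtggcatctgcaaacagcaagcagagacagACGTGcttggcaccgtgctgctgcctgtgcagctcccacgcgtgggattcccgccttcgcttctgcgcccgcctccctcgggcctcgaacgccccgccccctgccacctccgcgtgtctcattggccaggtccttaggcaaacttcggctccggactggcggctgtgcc
Pygl: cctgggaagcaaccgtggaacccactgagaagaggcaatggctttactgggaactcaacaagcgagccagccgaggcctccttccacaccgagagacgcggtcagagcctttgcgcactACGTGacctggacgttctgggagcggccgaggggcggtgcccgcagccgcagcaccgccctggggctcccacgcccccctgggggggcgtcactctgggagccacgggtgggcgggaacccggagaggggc
Pygb: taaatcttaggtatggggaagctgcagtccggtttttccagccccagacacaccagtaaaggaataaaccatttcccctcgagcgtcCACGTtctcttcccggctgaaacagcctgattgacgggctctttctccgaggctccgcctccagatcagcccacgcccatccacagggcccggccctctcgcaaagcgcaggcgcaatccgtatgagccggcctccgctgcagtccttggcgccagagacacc
RefSeq holds a further *Ugp2* start site, whose upstream bases, chr11:21370630-21370879, hold no such core. In the sequences shown, the core starts 169, 131 and 163 bases upstream of the start site, in this order. ACGTG was found on either strand in 4 of the 7 genes' promoters, *Ppp1r3c* being the other, and in 16.6% of all 32851 promoters. The first count is of genes with a match in any promoter, the share is of promoters. GC content was 48.8% for *Gbe1* and 59.6% to 73.6% for the other genes' windows, against a median of 52.4% over all promoters. Its part in the matches was not tested. The E-box CACGTG, which contains ACGTG, was found in *Ppp1r3c* and in 6.02% of all promoters. The cyclic AMP response element TGACGTCA (1.55% of all promoters) and a pair of AGGTCA sites in direct repeat 1 base apart (0.0335%) were in none of the 7. These are matches of letters in the window only.

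*Ugp2* (chr11:21321138-21371201, minus strand, GRCm38) encodes the enzyme that supplies UDP-glucose. On NCD it had 296, 359 and 337 CPM at 22 °C and 600.2, 712 and 415 CPM at 4 °C. On HFD it had 290.5, 308 and 375 CPM at 22 °C and 726, 549.8 and 701 CPM at 4 °C. Every cold library was thus above every library kept at 22 °C, whatever the diet. The log2 fold change by cold was 0.80 ± 0.19 (SE) on NCD (1.74-fold, adjusted p = 0.0291) and 1.02 ± 0.19 on HFD (2.03-fold, adjusted p = 0.00752). HFD gave -0.03 ± 0.19 at 22 °C (adjusted p = 0.964) and 0.19 ± 0.19 at 4 °C (adjusted p = 0.614). In the batch of replicates 1 and 2 alone, the rise was 1.00 on NCD (adjusted p = 0.0449) and 1.09 on HFD (adjusted p = 0.0356). The call on HFD held without any 1 of the 12 libraries (log2 fold changes of 0.98 to 1.14). On NCD it was lost without each of the 3 libraries at 22 °C, without replicate 1 or 2 at 4 °C (0.62 to 1.00 over all omissions, adjusted p up to 0.111), and in a fit of the 6 NCD libraries alone (0.80, adjusted p = 0.0619).

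*Gyg* (chr3:20122084-20155317, minus strand) encodes glycogenin, the protein primer of the particle. Its levels were 155, 160 and 138 CPM in NCD mice at 22 °C, 211, 211 and 160 CPM in NCD mice at 4 °C, 122, 114 and 151 CPM in HFD mice at 22 °C and 190, 146 and 175 CPM in HFD mice at 4 °C. The cold libraries had the higher mean on both diets, but the groups overlapped. The log2 fold change by cold was 0.36 ± 0.15 on NCD (adjusted p = 0.184) and 0.40 ± 0.15 on HFD (adjusted p = 0.108), below the thresholds in each. With the muscle score as a term, the value on HFD became 0.52 (adjusted p = 0.0495).

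The synthases are *Gys1* (chr7:45434844-45456619, plus strand), the form of muscle and most tissues, and *Gys2* (chr6:142422613-142473109, minus strand), the form of liver. Their annotated transcripts have no stretch of 31 bases in common. *Gys1* made up 60.5 ± 1.49% of the synthase transcripts per length in NCD mice at 22 °C and 54.4 ± 4.10% in those at 4 °C, 58.5 ± 5.65% in HFD mice at 22 °C and 59.4 ± 2.87% in those at 4 °C (SD, 3 libraries). *Gys1* was thus the larger share in all 12 libraries (50.1 to 65.0%), and at 22 °C its level per length did not overlap that of *Gys2* on either diet.

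*Gys2* had 122, 123 and 108 CPM in NCD mice at 22 °C and 205, 189 and 207 CPM in NCD mice at 4 °C, with a wide gap between the groups. In HFD mice it had 125, 108 and 96.5 CPM at 22 °C and 99.8, 162 and 134 CPM at 4 °C, which overlapped. Cold raised it by a log2 fold change of 0.77 ± 0.16 on NCD (1.71-fold, adjusted p = 0.0151), while the value on HFD was 0.26 ± 0.16 (adjusted p = 0.313). The difference of these effects, tested as an interaction, was -0.51 ± 0.22 with an unadjusted p of 0.0436 and an adjusted p of 0.750, so a different response on the diets was not established. Among cold mice *Gys2* was lower on HFD in every library, with a log2 fold change of -0.61 ± 0.16 and an adjusted p of 0.0502, just outside the threshold. DESeq2 gave an adjusted p of 0.00806 for this diet difference, and leaving out replicate 2 of HFD at 4 °C gave 0.0182 in edgeR. The call for cold on NCD was lost without replicate 3 of NCD at 22 °C (adjusted p = 0.0661) and in the batch of replicates 1 and 2 (0.69, adjusted p = 0.140).

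*Gys1* had 248, 251 and 246 CPM in NCD mice at 22 °C and 285, 366 and 348 CPM in NCD mice at 4 °C. All cold libraries on NCD were higher, yet the log2 fold change of 0.42 ± 0.16 did not pass (adjusted p = 0.148). In HFD mice it had 213, 185 and 248 CPM at 22 °C and 203, 289 and 304 CPM at 4 °C, with overlap, and the log2 fold change by cold was 0.30 ± 0.16 (adjusted p = 0.255). HFD gave -0.21 ± 0.16 at 22 °C (adjusted p = 0.543) and -0.33 ± 0.16 at 4 °C (adjusted p = 0.264).

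*Gbe1* (chr16:70313949-70569716, plus strand) encodes the branching enzyme. It had 565, 439 and 475 CPM in NCD mice at 22 °C and 555, 506 and 563 CPM in NCD mice at 4 °C. In HFD mice it had 494, 450 and 369 CPM at 22 °C and 336.5, 414 and 333 CPM at 4 °C. The cold HFD libraries were all below the cold NCD libraries, whereas the diets overlapped at 22 °C. The log2 fold change by HFD was -0.59 ± 0.14 at 4 °C (adjusted p = 0.0408) and -0.17 ± 0.14 at 22 °C (adjusted p = 0.568). Cold gave 0.14 ± 0.14 on NCD (adjusted p = 0.661) and -0.28 ± 0.14 on HFD (adjusted p = 0.234), and their difference had an adjusted p of 0.783. The HFD call at 4 °C lay close to the threshold. It was lost without any 1 of 8 libraries (NCD at 22 °C replicates 2 and 3, NCD at 4 °C replicates 1, 2 and 3, HFD at 22 °C replicate 2, HFD at 4 °C replicates 1 and 3), with log2 fold changes from -0.70 to -0.51 and adjusted p up to 0.170 over all omissions, and in the batch of replicates 1 and 2 (-0.50, adjusted p = 0.235).

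Of the phosphorylases, *Pygl* (chr12:70190811-70231488, minus strand) was far more abundant than *Pygb* (chr2:150786735-150831758, plus strand). *Pygl* provided 93.9 ± 0.315% of their summed transcripts per length in NCD mice at 22 °C, 96.0 ± 0.416% in those at 4 °C, 90.9 ± 0.907% in HFD mice at 22 °C and 89.8 ± 3.72% in those at 4 °C. The pair shares no 31-base stretch. *Pygb* and the muscle gene *Pygm* share 38 such stretches, 0.796% of those in *Pygb*.

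*Pygl* had 1531, 1089 and 1284 CPM in NCD mice at 22 °C and 1336, 1005 and 1273 CPM in NCD mice at 4 °C. In HFD mice it had 987, 717 and 659 CPM at 22 °C and 351, 640.0 and 256 CPM at 4 °C. The HFD libraries lay below the NCD libraries at both temperatures, and the cold HFD libraries were the lowest of all. At 4 °C the log2 fold change by HFD was -1.54 ± 0.30 (2.90-fold lower, adjusted p = 0.0166). At 22 °C it was -0.72 ± 0.29, which had an unadjusted p of 0.0309 and an adjusted p of 0.225. Cold on NCD left *Pygl* at -0.11 ± 0.29 (adjusted p = 0.884), with overlapping groups. Cold on HFD gave -0.92 ± 0.29 (adjusted p = 0.0669), and blocking on the replicate number inside each diet gave -1.01 and passed (adjusted p = 0.0216). The interaction, -0.81 ± 0.41, had an unadjusted p of 0.0753 and an adjusted p of 0.797.

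Cold HFD mice also differed among themselves. Replicate 2, with the highest *Pygl*, had 29.2 CPM of 8 summed immune markers, while replicates 1 and 3 had 55.9 and 64.5 CPM, the highest of the 12 libraries, with the other 9 between 20.2 and 50.6 CPM. The part of immune cells in the *Pygl* values was not tested. None of the 8 immune markers was at 0 in these 3 libraries. The HFD call for *Pygl* at 4 °C was lost without NCD at 4 °C replicate 1 or 3 or HFD at 4 °C replicate 1 or 3, with log2 fold changes from -1.99 to -1.27 and adjusted p up to 0.0808 over all omissions. In the batch of replicates 1 and 2 it was -1.24 (adjusted p = 0.178).

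*Pygb* had 135, 93.1 and 122 CPM in NCD mice at 22 °C and 80.4, 51.6 and 80.5 CPM in NCD mice at 4 °C. In HFD mice it had 123, 111 and 90.6 CPM at 22 °C and 53.2, 63.7 and 58.3 CPM at 4 °C. All 6 cold libraries were below all 6 libraries kept at 22 °C. Cold lowered *Pygb* by a log2 fold change of -0.72 ± 0.19 on NCD (1.65-fold lower, adjusted p = 0.0441) and of -0.89 ± 0.19 on HFD (1.85-fold lower, adjusted p = 0.0137). HFD gave -0.11 ± 0.19 at 22 °C (adjusted p = 0.821) and -0.28 ± 0.19 at 4 °C (adjusted p = 0.429). The call on HFD was lost without replicate 1 of either HFD group (log2 fold changes from -1.001 to -0.75 over all omissions, adjusted p up to 0.0660), and in the batch of replicates 1 and 2 (-0.9998, adjusted p = 0.0769). On NCD the call was kept only when the library left out was NCD at 22 °C replicate 2 or HFD at 22 °C replicate 1 or 3, was lost without any 1 of the 9 others (-0.86 to -0.53, adjusted p up to 0.140), and was lost in the batch of replicates 1 and 2 (-0.79, adjusted p = 0.146).

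The plot of phosphorylase and synthase transcripts sets these families side by side. This ratio was chosen after the values had been seen and is given without a test. *Pygl* and *Pygb* together reached 490.5 ± 83.7 CPM per kb in NCD mice at 22 °C and 445 ± 66.4 in those at 4 °C, 306.5 ± 65.7 in HFD mice at 22 °C and 162 ± 71.8 in those at 4 °C. *Gys1* and *Gys2* together reached 112 ± 3.82, 166 ± 9.72, 99.8 ± 7.59 and 122 ± 25.2 CPM per kb in the same order. Phosphorylase transcripts therefore exceeded synthase transcripts 4.40 ± 0.77 times in NCD mice at 22 °C and 2.69 ± 0.51 times in those at 4 °C, 3.07 ± 0.58 times in HFD mice at 22 °C and 1.34 ± 0.49 times in those at 4 °C. The cold HFD libraries, with 0.794 to 1.74, were below all others, of which the lowest had 2.16. With the muscle gene *Pygm* added to the phosphorylases, the group means were 5.18, 3.02, 3.87 and 1.55, and the cold HFD libraries were again below all others.

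**Figure D3:**
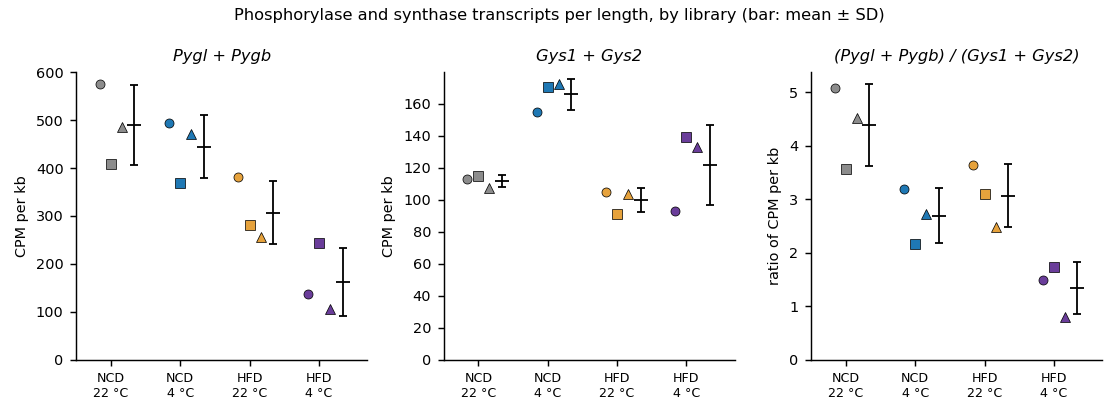
Summed CPM per kb of *Pygl* and *Pygb* (left), of *Gys1* and *Gys2* (middle) and their ratio (right) in each library, with the mean ± SD as a bar, axes from 0. The mean ratio goes from 4.40 in NCD mice at 22 °C to 1.34 in HFD mice at 4 °C, whose 3 libraries lie below the 9 others.

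*Ppp1r3b* (chr8:35375739-35388139, plus strand) encodes GL, the phosphatase subunit known from liver. It had 753, 1123 and 1071 CPM in NCD mice at 22 °C and 691, 445 and 1094 CPM in NCD mice at 4 °C. In HFD mice it had 541, 475 and 323 CPM at 22 °C and 160.0, 294 and 341 CPM at 4 °C. HFD libraries were below NCD libraries at each temperature. The log2 fold change by HFD was -1.49 ± 0.35 at 4 °C (2.80-fold lower, adjusted p = 0.0378), and at 22 °C it was -1.14 ± 0.35, with an unadjusted p of 0.00745 and an adjusted p of 0.121. DESeq2 called the latter as well (-1.17, adjusted p = 0.00980), and so did edgeR without a filter on low counts (adjusted p = 0.0359). Cold gave -0.40 ± 0.35 on NCD (adjusted p = 0.571) and -0.75 ± 0.35 on HFD (adjusted p = 0.189), with overlapping groups on each diet. The call for HFD at 4 °C was lost without any 1 of 8 libraries (NCD at 22 °C replicates 2 and 3, NCD at 4 °C replicates 1 and 3, HFD at 22 °C replicate 2, HFD at 4 °C replicates 1, 2 and 3), with log2 fold changes from -1.75 to -1.10 and adjusted p up to 0.129 over all omissions, and in the batch of replicates 1 and 2 (-1.32, adjusted p = 0.172).

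*Ppp1r3c* (chr19:36731731-36736653, minus strand) encodes PTG, the more widely expressed targeting subunit. Its levels were 138, 202 and 184 CPM in NCD mice at 22 °C, 165, 134 and 239 CPM in NCD mice at 4 °C, 120.2, 125 and 239 CPM in HFD mice at 22 °C and 96.1, 116 and 140.1 CPM in HFD mice at 4 °C. The groups overlapped in all 4 comparisons, and no adjusted p was below 0.238. Per length, *Ppp1r3b* exceeded *Ppp1r3c* 3.49 ± 0.12 times in NCD mice at 22 °C and 2.50 ± 0.39 times in those at 4 °C, 2.00 ± 1.03 times in HFD mice at 22 °C and 1.37 ± 0.29 times in those at 4 °C. In replicate 3 of HFD at 22 °C it was the lower of the pair, with a ratio of 0.840. The subunits share no 31-base stretch.

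Over all 4 groups, none of the 9 genes passed edgeR's test at an adjusted p under 0.001, which 2.55% of all genes did. Under 0.05 there were 6 genes, against 24.3% of all, led by *Ugp2* (adjusted p = 0.00450) and *Gys2* (0.00721) and followed by *Pygb* (0.00807), *Pygl* (0.00892), *Ppp1r3b* (0.0113) and *Gbe1* (0.0443). An unadjusted p under 0.05 was found for 8 of 9, all but *Ppp1r3c*, and for 38.9% of all genes. DESeq2's 4-group test passed 0.001 for 5 of the 9, *Gys2*, *Ugp2*, *Pygl*, *Pygb* and *Ppp1r3b*, and for 12.7% of all genes. The interaction of diet and temperature was past an adjusted p of 0.05 for 0 of 9 genes in edgeR and in DESeq2. The same was true of 0% of all genes in edgeR and 0.392% in DESeq2. Only *Gys2* of the 9 had an unadjusted p under 0.05 for the interaction in edgeR, and 6.52% of all genes did. Exact permutation tests of single genes, 3 libraries against 3 and two-sided, cannot go below p = 0.1, which 13 of the 36 comparisons reached. They were the same 13 in which the groups did not overlap, so they add no further result. In each comparison 25.2% to 30.3% of all genes showed no overlap.

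Genes outside the 9 were compared with them by level. The protein-coding genes with the highest correlation to *Ugp2* in log2 CPM over the 12 libraries were *Myo19* (Pearson's r = 0.97, and 0.84 between deviations from group means), *Cdv3* (0.96 and 0.76) and *Acot5* (0.95 and 0.74). Those for *Gys2* were *Lman2* (0.98 and 0.96), *Sap18* (0.97 and 0.89) and *Uros* (0.96 and 0.85). The 12 libraries share their groups, batches and depths, so these values describe likeness alone.

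A further 21 genes of glycogen turnover were tested, taken from a list of 23. They comprised the phosphorylase kinase subunits, other phosphatase subunits, the synthase kinases, lysosomal breakdown and the phosphoglucomutases. Cold on NCD raised 1, *Gsk3a*, and lowered 2, *Phka2* and *Ppp1r3e*. Cold on HFD raised 3, *Gsk3a*, *Gaa* and *Stbd1*, and lowered 1, *Phka2*. At 22 °C HFD changed 0 in edgeR, with 2 at an unadjusted p under 0.05, against 18.1% of all genes. At 4 °C HFD raised 1, *Stbd1*, and lowered 2, *Phkb* and *Pgm1*. Of all tested genes, 6.27%, 9.58%, 2.09% and 4.75% were called in either direction in these 4 comparisons, in this order. The medians of the 21 were -0.11, -0.16, -0.11 and -0.40 on the log2 scale in the 4 comparisons, in this order. All calls of these genes were lost in the batch of replicates 1 and 2 alone, where the direction of each was kept. That fit called only 2.12%, 2.51%, 0.253% and 0.32% of all genes in the 4 comparisons.

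*Gsk3a* encodes glycogen synthase kinase 3 alpha, which phosphorylates and inhibits the synthase. It had a mean of 75.5 ± 3.95 CPM in NCD mice at 22 °C and 127 ± 15.1 CPM in those at 4 °C, and 70.9 ± 8.30 and 108 ± 4.95 CPM in HFD mice, with no overlap on either diet. Its log2 fold change by cold was 0.75 ± 0.11 on NCD (adjusted p = 0.00361) and 0.60 ± 0.11 on HFD (adjusted p = 0.00743), in 12 of 12 omissions past the thresholds. *Gsk3b*, its paralog, did not pass in any comparison (-0.49 ± 0.23 for cold on NCD, adjusted p = 0.239).

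*Phka2* encodes the regulatory alpha subunit of the liver form of phosphorylase kinase, the enzyme that activates phosphorylase. It stood at 112 ± 10.3 and 69.6 ± 13.9 CPM in NCD mice at 22 °C and 4 °C, and at 88.0 ± 10.4 and 44.4 ± 10.3 CPM in HFD mice. Cold lowered it by -0.68 ± 0.18 on NCD (adjusted p = 0.0433) and -0.99 ± 0.18 on HFD (adjusted p = 0.00686). The call on NCD was lost without NCD at 22 °C replicate 1, 2 or 3, NCD at 4 °C replicate 2 or 3 or HFD at 22 °C replicate 2 (-0.81 to -0.53, adjusted p up to 0.145). The beta subunit *Phkb* was lower on HFD at 4 °C (-0.63 ± 0.16, adjusted p = 0.0496), a call kept in 3 of 12 omissions (adjusted p up to 0.170) and lost without any library of either NCD group, without HFD at 22 °C replicate 1 and without HFD at 4 °C replicate 1 or 3. Its adjusted p was also above 0.05 with DESeq2's size factors (0.0504), with batch as a term (0.0508) and with only the 6 libraries compared (0.0638). *Phkg1*, the muscle catalytic subunit, had log2 fold changes of -0.93 ± 1.04 for cold on NCD and -1.89 ± 1.05 on HFD, and was not called.

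*Stbd1*, a protein that binds glycogen and is linked to its delivery to lysosomes, was scarce but rose in cold HFD mice. It had 9.64, 6.45 and 8.42 CPM in NCD mice at 22 °C, 6.36, 7.30 and 8.88 CPM in NCD mice at 4 °C, 9.02, 11.4 and 8.78 CPM in HFD mice at 22 °C and 27.2, 15.5 and 24.8 CPM in HFD mice at 4 °C. All 3 cold HFD libraries were above the 9 others. Among them replicate 2 was lowest and had the lowest immune marker sum, and *Cd68*, a macrophage marker, stood at 16.7, 4.89 and 19.2 CPM in replicates 1, 2 and 3. The part of immune cells in the *Stbd1* values was not tested. The log2 fold change by cold was 1.21 ± 0.23 on HFD (adjusted p = 0.00746) and -0.12 ± 0.23 on NCD (adjusted p = 0.834), and HFD gave 1.58 ± 0.23 at 4 °C (adjusted p = 0.00430). The difference of the cold effects was 1.33 ± 0.32, with an unadjusted p of 0.00165 and an adjusted p of 0.493. *Gaa*, the lysosomal acid alpha-glucosidase, rose with cold on HFD (0.79 ± 0.19, adjusted p = 0.0227), and on NCD its value was 0.53 ± 0.19 (adjusted p = 0.124). The call of *Gaa* was lost without HFD at 22 °C replicate 1 or 2 or HFD at 4 °C replicate 1 or 3 (0.73 to 0.93, adjusted p up to 0.0751).

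*Pgm1*, which interconverts glucose 1-phosphate and glucose 6-phosphate, was lower on HFD at 4 °C (-0.59 ± 0.12, adjusted p = 0.0239), a call lost without NCD at 4 °C replicate 1 or 3 or HFD at 4 °C replicate 1 (-0.66 to -0.44, adjusted p up to 0.0802). *Pgm2* was not called, with 0.52 ± 0.18 for cold on HFD (adjusted p = 0.0805).

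*Ppp1r3e*, another phosphatase subunit, fell with cold on NCD from 5.02 ± 1.12 to 2.43 ± 0.69 CPM (log2 fold change -1.05 ± 0.25, adjusted p = 0.0291). The call was lost without NCD at 22 °C replicate 1 or 3 or NCD at 4 °C replicate 2 or 3 (-1.28 to -0.90, adjusted p up to 0.107). The muscle genes *Pygm* and *Ppp1r3a* varied widely between libraries. *Pygm* had 86.6, 582 and 96.2 CPM in NCD mice at 22 °C, 64.6, 370.0 and 36.9 CPM in NCD mice at 4 °C, 76.4, 86.4 and 541 CPM in HFD mice at 22 °C and 28.3, 35.6 and 169 CPM in HFD mice at 4 °C. The highest library of each group was the one with the most muscle marker RNA. Neither gene was called (*Pygm* -0.70 ± 1.11 for cold on NCD and -1.59 ± 1.14 on HFD, *Ppp1r3a* -0.91 ± 1.21 and -1.94 ± 1.23).

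Of a list of 10 genes that supply or use glucose 6-phosphate, the sugar from which glycogen is made, 9 were tested. *G6pc*, the glucose 6-phosphatase of liver and kidney, had at most 1 count in a library and was not tested. Cold on NCD raised 1 gene, *Hk1*, and lowered 1, *Slc37a4*. Cold on HFD raised 2, *Slc2a1* and *Hk1*, and lowered *Slc37a4*. HFD at 22 °C lowered 1, *Slc2a4*, and HFD at 4 °C raised *Hk1* and lowered 4, *Slc2a4*, *Hk2*, *Slc37a4* and *Gpi1*. Among all tested genes the shares called were 6.27%, 9.58%, 2.09% and 4.75% in these 4 comparisons. The medians of the 9 were 0.10, 0.09, -0.51 and -0.53 on the log2 scale. In the batch of replicates 1 and 2 alone, all these calls but that of *Slc37a4* for cold on HFD were lost, with the direction of each kept. As given above, that fit called 0.253% to 2.51% of all genes.

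*Slc37a4*, which carries glucose 6-phosphate into the endoplasmic reticulum, showed the largest cold effect on HFD among these genes. It had 39.7, 35.0 and 31.9 CPM in NCD mice at 22 °C, 22.5, 17.6 and 24.5 CPM in NCD mice at 4 °C, 26.0, 19.9 and 27.4 CPM in HFD mice at 22 °C and 8.42, 11.1 and 10.9 CPM in HFD mice at 4 °C. The cold HFD libraries were the lowest of the 12. Its log2 fold changes were -0.72 ± 0.17 for cold on NCD (adjusted p = 0.0266), -1.27 ± 0.17 for cold on HFD (adjusted p = 0.00148) and -1.09 ± 0.17 for HFD at 4 °C (adjusted p = 0.00646). The call for cold on HFD was also kept in the batch of replicates 1 and 2 (-1.23, adjusted p = 0.0383), and that on NCD was lost without any library of NCD at 22 °C and without NCD at 4 °C replicate 1 or 2 (-0.82 to -0.59, adjusted p up to 0.1004).

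*Hk2*, the hexokinase of insulin-sensitive tissues, had 942 ± 174 and 1035 ± 278 CPM in NCD mice at 22 °C and 4 °C, and 575 ± 106 and 371 ± 34.8 CPM in HFD mice. It was lower on HFD at 4 °C (-1.48 ± 0.21, adjusted p = 0.00381), and at 22 °C the value was -0.71 ± 0.21 (adjusted p = 0.105). *Hk1*, the hexokinase of most tissues, was higher in the cold on both diets (0.56 ± 0.13 on NCD, adjusted p = 0.0224, and 0.71 ± 0.13 on HFD, adjusted p = 0.00557) and on HFD at 4 °C (0.70 ± 0.13, adjusted p = 0.0116). The NCD call of *Hk1* was lost without replicate 2 or 3 of either NCD group (0.49 to 0.66, adjusted p up to 0.0964), and that of HFD at 4 °C without replicate 1 of either cold group (0.62 to 0.80, adjusted p up to 0.0607).

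The insulin-responsive glucose transporter gene *Slc2a4* was lower on HFD at 22 °C (-0.66 ± 0.15, adjusted p = 0.0460) and at 4 °C (-0.88 ± 0.15, adjusted p = 0.00868). At 22 °C its call was lost without any library of NCD at 22 °C, without NCD at 4 °C replicate 2, HFD at 22 °C replicate 2 or 3 and HFD at 4 °C replicate 3 (-0.78 to -0.57, adjusted p up to 0.135). *Slc2a1*, the basal glucose transporter gene, rose with cold on HFD (0.96 ± 0.19, adjusted p = 0.00991), with 0.53 ± 0.20 on NCD (adjusted p = 0.134). *Gpi1*, which converts glucose 6-phosphate to fructose 6-phosphate, was lower on HFD at 4 °C (-0.53 ± 0.13, adjusted p = 0.0408), a call kept in 3 of 12 omissions, lost without any library of NCD at 22 °C or HFD at 4 °C, without NCD at 4 °C replicate 2 or 3 and without HFD at 22 °C replicate 2 (-0.63 to -0.45, adjusted p up to 0.180).

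Of 5 genes around UDP-glucose other than *Ugp2*, 0 were called by edgeR in the 4 comparisons. An unadjusted p under 0.05 was found for 0 of them for cold on NCD, 1 for cold on HFD, and for 2 and 1 when HFD was compared with NCD at 22 °C and at 4 °C. Among all genes the shares were 21.9%, 27.5%, 18.1% and 22.7%. DESeq2 values were not taken for these genes. Their median log2 fold changes were 0.05, 0.04, -0.10 and 0.19 in the same order.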

How the data were processed

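Total RNA of iBAT, depleted of ribosomal RNA, was sequenced from 12 libraries, 3 mice in each of 4 groups of diet and temperature, and groups and batches followed the sample labels. After read filtering with cutadapt, the authors used salmon with the transcripts of GENCODE M22 and RNAcentral 5 (GRCm38) and added up the transcripts of each gene. What they deposited is a whole-number estimated count for each gene and library, neither normalized nor pooled over replicates. Whether the quantification used strand is not given in the sources used here, so reads of a gene and of an antisense partner may not be told apart.

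Counts were filtered with edgeR's filterByExpr (minimum count 10), scaled by TMM and fitted with edgeR 4.0.16 (R 4.3.3) as 4 group means over all 12 libraries, with quasi-likelihood tests and Benjamini-Hochberg adjustment over 16737 genes. The thresholds were an adjusted p of 0.05 and a log2 fold change beyond 0.5 in either direction for a contrast, an adjusted p of 0.05 for the interaction and 0.001 for the 4-group test. Standard errors are the log2 fold change over the square root of F. Levels are CPM, and levels per kb divide by the longest principal coding transcript of GENCODE M21 (GRCm38), which also gave the coordinates. Library totals of 15136861 to 46740702 counts put every member at 876 counts or more per library. Each p-value of the fit weighs a group difference against the spread between libraries within the 4 groups. That spread was estimated with information from all tested genes.

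The members and lists were chosen with earlier results of these data known. Named were the 9 members, the genes called on the lists of other glycogen, glucose 6-phosphate and UDP-glucose genes, *Pygm*, *Ppp1r3a*, *Phkg1*, *Pgm1* and *Pgm2* whatever their result, and the 3 genes most like each of the 2 members with the smallest 4-group p. *Gsk3b* and the phosphorylase to synthase ratio were added after their values had been seen. Of the list of 23 other glycogen genes, 21 were in the table. Further genes of the lists are not reported here.

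Same-numbered libraries of the cold and the 22 °C group of a diet shared deviations from the group means (correlations of 0.219 to 0.456 on NCD and 0.155 to 0.386 on HFD), and were treated as pairs in an alternative fit. Between diets the correlations ran from -0.211 to 0.365 and gave no pairing. Where the pairing comes from is not given in the sources used here.

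Alternatives were DESeq2 1.42.0, its size factors in edgeR, no filter, a mean of at least 10 counts, batch or replicate number as a term, the block within diet, the batch of replicates 1 and 2 alone, a muscle score as a term, only the 6 libraries compared, and each library left out in turn. For genes outside the 9 these were added after the data had been seen. The fit was tested on simulated data with 200 changed genes.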

Additional observations from a re-analysis of the deposited data

How the results depend on the processing

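Among the 9 genes, 22 values of a gene under an alternative reversed in direction, 49 lost a call, 21 gained one and 1051 stayed. Cold on NCD called 3 of the 9 genes, 1 in the batch of replicates 1 and 2 (*Ugp2*), 1 with only the 6 libraries compared (*Gys2*) and 0 to 3 with a library left out. Of all genes the main fit called 6.27%, the fit of that batch 2.12% and that of the 6 libraries 6.79%. Cold on HFD called 2, 1 in that batch (*Ugp2*), 4 with the muscle score as a term (*Gyg*, *Ugp2*, *Pygl*, *Pygb*) and 1 to 3 with a library left out. The shares of all genes were 9.58% in the main fit, 2.51% in that batch and 9.95% with the muscle score. HFD at 22 °C called 0, 1 with DESeq2 and 1 without a filter on low counts (both *Ppp1r3b*) and 0 with any library left out. Here the shares of all genes were 2.09% in the main fit, 3.47% with DESeq2 and 1.37% without a filter. HFD at 4 °C called 3, 0 in that batch, 0 with only the 6 libraries compared and 0 to 3 with a library left out. Few genes of any kind were called in those 2 fits, 0.32% and 0.949% of all, against 4.75% in the main fit. The 4-group test called 0, 5 with DESeq2, 4 without a filter (*Ugp2*, *Pygl*, *Pygb*, *Ppp1r3b*) and 0 with any library left out, and the interaction 0 in each alternative run. For the 4-group test the shares of all genes were 2.55% in the main fit, 12.7% with DESeq2 and 2.89% without a filter. For the interaction the share was 0.392% with DESeq2. The fits of that batch alone and of the 6 libraries compared hold fewer libraries, and the cause of the other changes was not tested.

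Reversals concerned values that were not called. For *Ppp1r3c* and cold on NCD (0.04) the value was -0.0092 with batch as a term, -0.19 in the batch of replicates 1 and 2 and -0.22 to 0.22 with a library left out. For *Ugp2* and HFD at 22 °C (-0.03) it was 0.0094 with the muscle score and -0.14 to 0.034 with a library left out, and for HFD at 4 °C (0.19) it was -0.040 in the batch of replicates 1 and 2 and -0.0033 to 0.37 with a library left out. *Pygb* for HFD at 22 °C (-0.11) gave 0.036 in that batch and -0.25 to 0.0025 with a library left out. With a library left out, *Pygl* for cold on NCD ranged from -0.22 to 0.026, *Ppp1r3c* for HFD at 22 °C from -0.51 to 0.038, and the interaction from -0.22 to 0.10 for *Gys1*, from -0.056 to 0.17 for *Gyg* and from -0.61 to 0.067 for *Ppp1r3b*.

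The replicate block within diet changed 1 call of the named genes in the cold contrasts, *Pygl* for cold on HFD (-1.01, adjusted p = 0.0216), and no other. A block of the replicate number over all groups changed none of the 9 genes (*Ugp2* for cold on HFD 1.02, adjusted p = 0.0138), but with it *Phkb* and *Gpi1* for HFD at 4 °C and *Slc2a4* for HFD at 22 °C were not called (adjusted p = 0.0640, 0.0563 and 0.0562). *Pygl* for cold on HFD was also called by DESeq2 (-0.91, adjusted p = 0.0120), without a filter (-0.89, adjusted p = 0.0294), with the muscle score (-1.26, adjusted p = 0.00978) and without replicate 2 of HFD at 4 °C (-1.37, adjusted p = 0.00652). *Gys2* for HFD at 4 °C was called at a mean of at least 10 counts (adjusted p = 0.0464) and with the muscle score (adjusted p = 0.0409), and *Gbe1* for HFD at 4 °C was not called without a filter. DESeq2's size factors in edgeR turned no direction among the 9 genes. With only the 6 libraries compared, *Phkb*, *Pgm1*, *Slc2a4*, *Hk1* and *Gpi1* for HFD at 4 °C (adjusted p = 0.0638, 0.115, 0.0653, 0.0743 and 0.140), *Slc2a4* for HFD at 22 °C (0.0536) and *Ppp1r3e* for cold on NCD (0.0643) were not called, nor were *Slc2a4* for HFD at 22 °C with batch as a term (0.0508) and *Gpi1* without a filter (0.0907). Depth was 876 counts or more for each of the 9 genes in each library.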
